A study of Rattus norvegicus with 20 samples.

Results

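The miR-106b, miR-93 and miR-25 cluster is a group of 3 microRNA precursors that lie close together inside the gene Mcm7. MicroRNAs (miRNAs) are short RNAs that lower the output of messages they pair with, mainly through bases 2 to 8 from the 5′ end, called the seed. The members were the mature products read on the array under the names rno-miR-106b-5p, rno-miR-106b-3p, rno-miR-93-5p and rno-miR-25-3p, 4 of the 677 rat miRNAs on the array. They were measured on 20 one-colour Agilent arrays of RNA labelled with the dye Cy3, 5 arrays each of cyclophosphamide (CPA) round spermatids, saline round spermatids, CPA pachytene spermatocytes and saline pachytene spermatocytes. All groups came from male Sprague-Dawley rats of an age not given in the sources used here. They were gavaged for 4 weeks, 6 days of each, with saline or with CPA, an alkylating anticancer drug, at a dose of 6 mg/kg. Round spermatids are haploid cells that have finished meiosis, and pachytene spermatocytes are still in meiotic prophase. Both were separated by STA-PUT sedimentation at unit gravity and frozen, so each array holds an enriched cell fraction and not a pure cell type. The array numbers are taken as those of the rats. They are 14, 15, 16, 25 and 26 for CPA round spermatids, and 15, 16, 17, 25 and 28 for saline round spermatids. They are 7, 15, an earlier and a later rat 16, and 29 for CPA pachytene spermatocytes, and 13, 16, 25, 26 and 28 for saline pachytene spermatocytes, and values below follow that order. A number can occur in both cell types of a treatment, and whether it then stands for a single rat is not stated in the labels.

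Mcm7 encodes a subunit of the replicative DNA helicase, and the cluster in its intron is transcribed with it. The cluster is a relative of the miR-17 to miR-92 cluster and of the X-linked miR-106a to miR-363 cluster, which encode miRNAs with the same seeds. In human cells miR-106b and miR-93 are known to repress the cell cycle inhibitor CDKN1A, and miR-25 the pro-apoptotic gene BCL2L11. In mouse, this cluster and the miR-17 to miR-92 cluster have been studied mostly in spermatogonia, the dividing germ cells that precede meiosis.

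The mature sequences follow because the seeds split the cluster into separate target classes. They are RefSeq's, on build GRCr8, where all 4 members matched by name. The capitals mark the seed.

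miR-106b-5p: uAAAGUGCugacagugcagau

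miR-93-5p: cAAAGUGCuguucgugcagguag

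miR-25-3p: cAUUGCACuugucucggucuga

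miR-106b-3p: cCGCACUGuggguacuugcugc

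All lie on the minus strand of chromosome 12, the strand of Mcm7, within its bounds. The positions are chr12:22157103-22157123 for miR-106b-5p, chr12:22157062-22157083 for miR-106b-3p, chr12:22156894-22156916 for miR-93-5p and chr12:22156652-22156673 for miR-25-3p, so that the mature products of the cluster span 472 bases. miR-106b-5p and miR-93-5p share the seed AAAGUGC and 16 of 21 bases when lined up at their 5′ ends. miR-25-3p carries the seed AUUGCAC. The seed of miR-106b-3p, CGCACUG, was found in no other rat miRNA of the table.

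Relatives that share a seed with a member are shown for the comparison with the cluster below.

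miR-17-5p: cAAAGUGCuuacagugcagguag

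miR-20a-5p: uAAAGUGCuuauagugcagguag

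miR-20b-5p: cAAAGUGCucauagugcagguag

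miR-92a-3p: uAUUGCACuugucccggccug

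miR-363-3p: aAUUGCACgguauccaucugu

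miR-32-5p: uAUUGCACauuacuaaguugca

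miR-17-5p, miR-20a-5p and miR-20b-5p are the other members of the miR-106b-5p seed group in the table, and miR-106b-5p matched them at 18, 18 and 17 of 21 bases. miR-92a-3p matched miR-25-3p at 18 of 21 bases, miR-32-5p at 13 of 22 and miR-363-3p at 8 of 21, most of them in the seed. A further member of the miR-25-3p seed group, miR-92b-3p, was detected on 2 of 5 CPA and 3 of 5 saline spermatid arrays and on 1 of 5 CPA and 0 of 5 saline pachytene arrays, and it was not tested.

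Signals are the scanner's background-subtracted intensities after each array was scaled to its 75th percentile, without a unit, and no signal was allowed below 12.17, a floor that equals 3.61 in log2. A scaled signal depends on the probe, so it is compared across arrays and not between miRNAs. Array software detected between 181 and 281 miRNAs per array, with 18.9% to 31.4% of the spots well above background. A miRNA entered the test if some group had it detected on each of its 5 arrays, which held for 217 miRNAs. They were fitted in 1 limma model with a mean for each group, and Benjamini-Hochberg adjusted p-values under 0.05 over the 217 miRNAs were called. All 4 members were tested, miR-106b-3p through its detection in pachytene spermatocytes. The arrays lay on 3 slides: slide 1 held 4 spermatid and 4 pachytene arrays, slide 2 held 2 spermatid and 6 pachytene arrays, and slide 3 held 4 spermatid arrays. Nothing in the labels says more about the rats than their numbers, and if these are not separate animals the spread behind the p-values may be technical.

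miR-106b-5p was lower in round spermatids than in pachytene spermatocytes of both treatments, by a fold of 1.53 in CPA rats and 1.71 in saline rats. At the scaling used here miR-25-3p was higher in round spermatids, 1.42-fold in CPA rats, where it passed the test, and 1.22-fold in saline rats, where it did not. On the labelling spike-ins its differences were below 0 in both treatments, and no difference between members was tested. miR-93-5p, which shares the seed of miR-106b-5p, was 1.07-fold lower in CPA rats, where it did not pass the test, and 1.24-fold lower in saline rats, where it passed narrowly. None of the members passed the test between CPA and saline in either cell type. In bulk fractions, fewer cells of a type and less RNA per cell cannot be told apart.

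**Figure D1:**
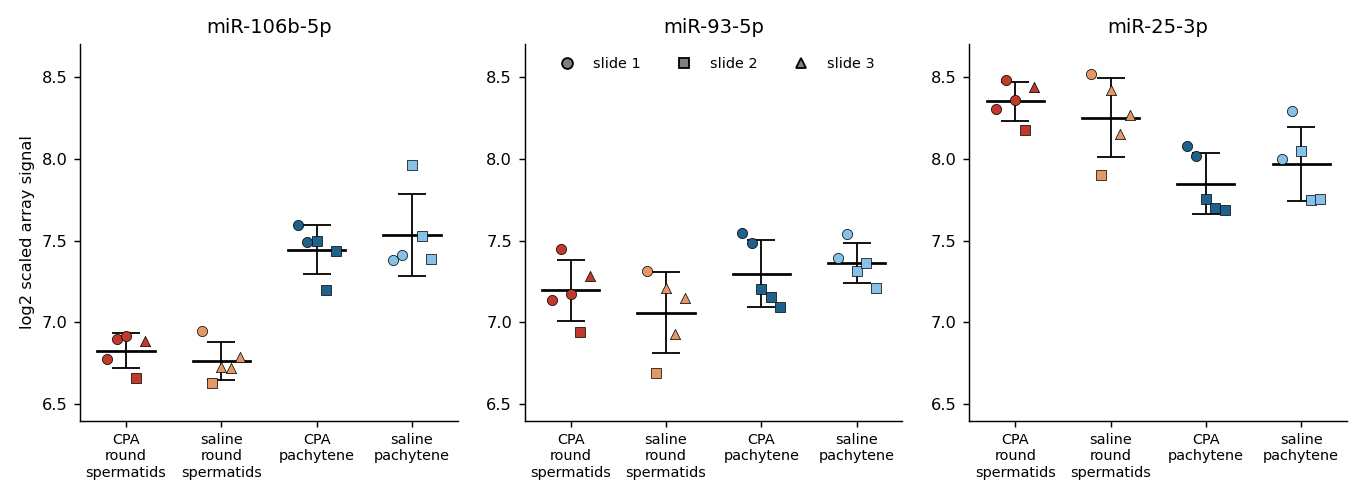
Log2 scaled signal of miR-106b-5p, miR-93-5p and miR-25-3p on each of the 20 arrays, by group, with marker shape for the slide; the line is the mean of 5 arrays and the bar its SD. The spermatid and pachytene arrays of miR-106b-5p do not overlap, and those of miR-93-5p overlap. At this scaling miR-25-3p has the higher means in spermatids, without overlap in CPA rats and with overlap in saline rats, where it was not called. Its direction depends on the scaling.

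miR-106b-5p, the 5′ arm of the first precursor, had signals of 109.7, 119, 121, 101 and 118 in CPA round spermatids and 123, 99.1, 106, 105 and 111 in saline round spermatids. Its signals were 193, 179.6, 181, 147 and 173 in CPA pachytene spermatocytes and 167, 170.0, 249, 185 and 167 in saline pachytene spermatocytes. The highest of the 10 spermatid arrays, 123, lay below the lowest of the 10 pachytene arrays, 147, so the cell types did not overlap in either treatment. The array of saline pachytene rat 25 stood above the rest of its group at 249. On the log2 scale the means were 6.83 ± 0.11 in CPA round spermatids and 7.44 ± 0.15 in CPA pachytene spermatocytes (SD, n = 5 each). The saline means were 6.76 ± 0.12 in round spermatids and 7.53 ± 0.25 in pachytene spermatocytes (SD, n = 5 each). The log2 difference of round spermatids against pachytene spermatocytes was -0.62 ± 0.11 in CPA rats (SE; 95% interval -0.84 to -0.39; limma adjusted p = 6.07e-05). In saline rats it was -0.77 ± 0.11 (SE; 95% interval -0.99 to -0.55; limma adjusted p = 4.45e-06). With normexp background correction it was -0.37 in saline rats and was not called (limma adjusted p = 0.0693). Over all tested miRNAs, 42.4% did not overlap between the cell types in CPA rats and 34.6% in saline rats.

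miR-93-5p, the 5′ arm of the middle precursor, had signals of 141, 175, 145, 123 and 156 in CPA round spermatids and 159, 103, 148, 122 and 142 in saline round spermatids. Its signals were 187, 179, 148, 143 and 137 in CPA pachytene spermatocytes and 168, 186, 159, 165 and 148 in saline pachytene spermatocytes. The cell types overlapped in both treatments. The log2 means were 7.20 ± 0.19 in CPA round spermatids and 7.30 ± 0.20 in CPA pachytene spermatocytes (SD, n = 5 each), a difference of -0.10 ± 0.12 (SE; 95% interval -0.36 to 0.16; limma adjusted p = 0.497). In saline rats they were 7.06 ± 0.25 in round spermatids and 7.36 ± 0.12 in pachytene spermatocytes (SD, n = 5 each), a difference of -0.30 ± 0.12 (SE; 95% interval -0.56 to -0.047; limma adjusted p = 0.0472). The saline call rests on single arrays. It was lost when any one of saline pachytene rats 13, 16, 25 and 26 or saline spermatid rats 16, 25 and 28 was left out, with differences between -0.33 and -0.21 and limma adjusted p-values of 0.0538 to 0.138. With slide as a block the call was made in both treatments, with differences of -0.22 in CPA rats (limma adjusted p = 0.0361) and -0.42 in saline rats (limma adjusted p = 0.00195).

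miR-25-3p, the 3′ arm of the last precursor, had signals of 316, 357, 328, 289 and 346 in CPA round spermatids and 366, 239, 343, 285 and 308 in saline round spermatids. Its signals were 269.9, 259, 216, 208 and 206 in CPA pachytene spermatocytes and 255, 313, 264, 215 and 216 in saline pachytene spermatocytes. In CPA rats every spermatid array lay above every pachytene array, where 42.4% of all tested miRNAs did not overlap between the cell types. In saline rats the cell types overlapped, with the spermatid array of rat 16 at 239 and the pachytene array of rat 16 at 313. The CPA log2 means were 8.35 ± 0.12 in round spermatids and 7.85 ± 0.19 in pachytene spermatocytes (SD, n = 5 each), a difference of 0.50 ± 0.12 (SE; 95% interval 0.24 to 0.77; limma adjusted p = 0.00215). The saline log2 means were 8.25 ± 0.24 in round spermatids and 7.97 ± 0.23 in pachytene spermatocytes (SD, n = 5 each), a difference of 0.28 ± 0.12 (SE; 95% interval 0.024 to 0.55; limma adjusted p = 0.0655). The saline difference passed the test at 0.37 without the pachytene array of rat 16 (limma adjusted p = 0.0197) and at 0.37 without the spermatid array of rat 16 (limma adjusted p = 0.0139). The direction of miR-25-3p depends on the scaling: with no scaling between arrays the difference was 0.10 in CPA rats and -0.19 in saline rats, neither called. Scaled on the labelling spike-ins, a setting chosen after seeing the data, it was -0.21 in CPA rats, not called, and -0.94 in saline rats, called lower (limma adjusted p = 0.00296). That scaling put the median of all tested miRNAs at -0.49 in CPA rats and -1.01 in saline rats, and relative to those medians miR-25-3p stood 0.29 and 0.077 higher.

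miR-106b-3p, the 3′ arm of the first precursor, was close to the limit of detection. It was detected on 2 of 5 CPA and 3 of 5 saline spermatid arrays, against 5 of 5 CPA and 5 of 5 saline pachytene arrays. Its brightest probe lay at the floor on 4 of 5 CPA and 5 of 5 saline spermatid arrays, and on 4 of 5 CPA and 3 of 5 saline pachytene arrays, with 14.6 on the CPA pachytene array of rat 7 and 14.8 on the saline pachytene array of rat 25 as the highest values. The fitted log2 differences of -0.05 in CPA rats and -0.07 in saline rats depend on that floor and were not called (limma adjusted p = 0.538 and 0.385). Since miR-106b-3p was tested only through its detection in pachytene spermatocytes, where it was higher, a call of it in any setting is no support for a difference. The remaining arms of the precursors, miR-93-3p and miR-25-5p, were detected on 0 of the 20 arrays.

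In CPA rats 1 member was called higher and 1 lower in round spermatids, against 53.9% of the 217 tested miRNAs called in either direction, 30.9% higher and 23% lower. In saline rats 0 members were called higher and 2 lower, against 48.4% called in either direction, 26.3% higher and 22.1% lower. With about as large a share of all miRNAs called, these counts are not a result about the cluster. The median difference over the members was -0.08 in CPA rats and -0.19 in saline rats, and that over all tested miRNAs was 0.06 in CPA rats and 0.02 in saline rats.

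The order of the group means differed by member. For miR-106b-5p the levels ran, high to low, saline pachytene spermatocytes, CPA pachytene spermatocytes, CPA round spermatids and saline round spermatids, and of the neighbouring groups the CPA pachytene spermatocytes and CPA round spermatids differed by the test. miR-93-5p had the same order, and no neighbouring groups passed the test. For miR-25-3p the order was CPA round spermatids, saline round spermatids, saline pachytene spermatocytes and CPA pachytene spermatocytes, and no neighbouring groups passed the test.

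A ratio of a pair of members within an array does not depend on how the arrays were scaled to one another. Its zero has no meaning, since the signals come from different probes, so only its change between arrays is read. The log2 ratio of miR-25-3p over miR-106b-5p was 1.52 ± 0.05 in CPA round spermatids and 0.40 ± 0.14 in CPA pachytene spermatocytes (SD, n = 5 each). It was 1.49 ± 0.16 in saline round spermatids and 0.43 ± 0.32 in saline pachytene spermatocytes (SD, n = 5 each). Every spermatid array, from 1.27 upward, lay above every pachytene array, up to 0.88. Single tested miRNAs without overlap between the cell types made up 42.4% in CPA rats and 34.6% in saline rats. For ratios of other pairs no such share was worked out. The arrays carry 2 probes each for miR-25-3p and miR-106b-5p. With each of the 4 probe pairings the cell types stayed apart, by 1.02 to 1.37 between their means.

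The log2 ratio of miR-25-3p over miR-93-5p was 1.15 ± 0.07 in CPA round spermatids and 0.55 ± 0.02 in CPA pachytene spermatocytes (SD, n = 5 each). It was 1.19 ± 0.04 in saline round spermatids and 0.60 ± 0.15 in saline pachytene spermatocytes (SD, n = 5 each). With the brightest probes the lowest spermatid array, 1.03, lay above the highest pachytene array, 0.75, while 1 of the 4 probe pairings overlapped. miR-93-5p over miR-106b-5p was 0.37 ± 0.11 in CPA round spermatids and -0.15 ± 0.16 in CPA pachytene spermatocytes (SD, n = 5 each). It was 0.30 ± 0.16 in saline round spermatids and -0.17 ± 0.30 in saline pachytene spermatocytes (SD, n = 5 each), where spermatid rat 16 at 0.06 fell below pachytene rat 16 at 0.13. By their mean ratios, spermatids had the most miR-25-3p and the least miR-106b-5p relative to the other members above the floor, set against pachytene spermatocytes. The ratios are descriptions and were not tested.

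**Figure D2:**
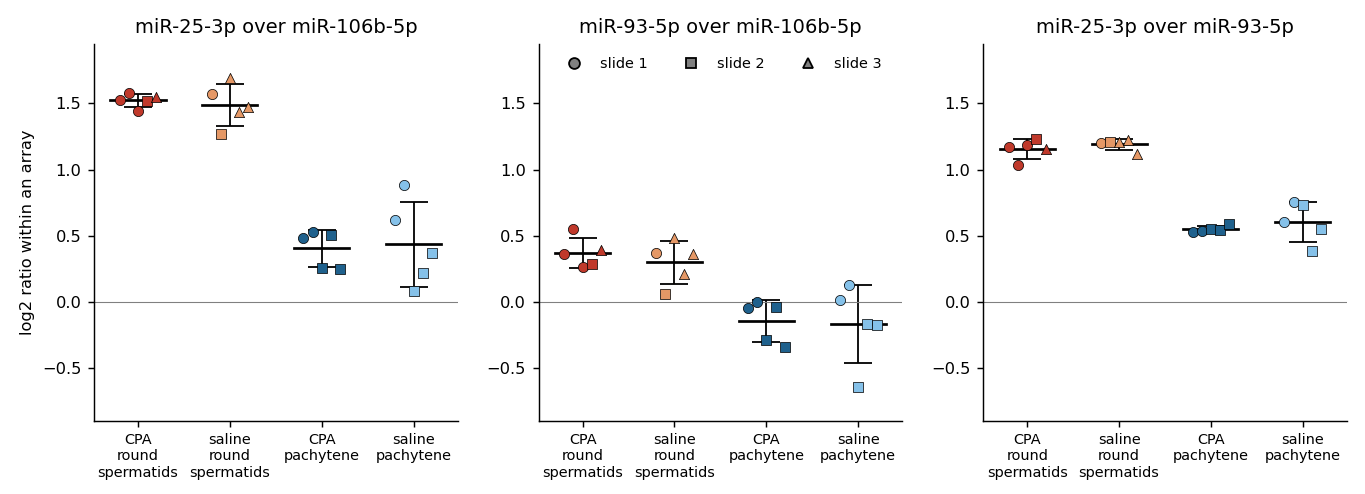
Log2 ratio of a pair of members within each array, by group, with marker shape for the slide; the line is the mean of 5 arrays and the bar its SD. For miR-25-3p over miR-106b-5p the spermatid arrays sit between 1.27 and 1.69 and the pachytene arrays between 0.08 and 0.88.

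Of 3 relatives with the miR-17 seed on the array, all tested, 2 were called lower in round spermatids of CPA rats and 3 in those of saline rats, with none called higher. Of all tested miRNAs 23% were called lower in CPA rats and 22.1% in saline rats, and with 3 relatives these counts are a description. Under the 17 other settings run with no array left out, scalings included, the differences of all 3 stayed below 0 in both treatments. miR-17-5p, whose sequence RefSeq lists at loci on more than 1 chromosome, had signals of 132, 169, 132, 121 and 171 in CPA round spermatids, against 286, 272, 229, 222 and 211 in CPA pachytene spermatocytes. In saline rats they were 152, 110.1, 129.8, 124 and 142 in round spermatids, against 223, 240.0, 257, 253 and 232 in pachytene spermatocytes. The cell types did not overlap, with log2 differences of -0.75 ± 0.11 in CPA rats (SE; limma adjusted p = 1.33e-05) and -0.88 ± 0.11 in saline rats (SE; limma adjusted p = 2.23e-06). miR-20b-5p, of the X-linked cluster, fell by 0.29 in CPA rats and 0.48 in saline rats on the log2 scale (limma adjusted p = 0.0472 and 0.00221). miR-20a-5p fell by 0.40 in saline rats (limma adjusted p = 0.0129), and its difference in CPA rats, -0.22, was not called (limma adjusted p = 0.147). Of those 17 settings miR-17-5p was called in 17 in CPA rats and 16 in saline rats, miR-20b-5p in 11 and 15, and miR-20a-5p in 4 and 15. The CPA call of miR-20b-5p was lost with 7 of the 10 arrays left out in turn, at differences between -0.31 and -0.24. The median difference of these 3 relatives was -0.29 in CPA rats and -0.48 in saline rats, and that of all tested miRNAs was 0.06 in CPA rats and 0.02 in saline rats. Probes for miRNAs this alike in sequence may share signal, and cross-hybridization was not tested.

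The relatives with the miR-25 seed did not follow a common direction. Of 4 on the array, 3 were tested, and 1 was called higher in CPA rats and 1 in saline rats, with none called lower. That was miR-363-3p, of the X-linked cluster, with signals of 13.7 to 18.3 in CPA round spermatids and 12.2 to 12.4 in CPA pachytene spermatocytes, close to the floor. Its log2 differences were 0.38 ± 0.08 in CPA rats and 0.33 ± 0.08 in saline rats (SE; limma adjusted p = 0.000465 and 0.00205), and they depend on the floor and the scaling. It was called in 10 of 16 other settings in CPA rats and in 9 in saline rats, and scaled on the labelling spike-ins its saline difference turned to -0.34. miR-92a-3p, the closest to miR-25-3p in sequence, had differences of -0.27 ± 0.16 in CPA rats and -0.37 ± 0.16 in saline rats (SE; limma adjusted p = 0.158 and 0.0616), and it was called lower in 6 of 17 other settings in CPA rats and in 7 in saline rats. miR-32-5p had 0.15 ± 0.14 in CPA rats and 0.06 ± 0.14 in saline rats (SE; limma adjusted p = 0.397 and 0.762), and its sign turned with the scaling, between -0.36 and 0.41 over the settings in CPA rats and between -0.81 and 0.58 in saline rats.

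**Figure D3:**
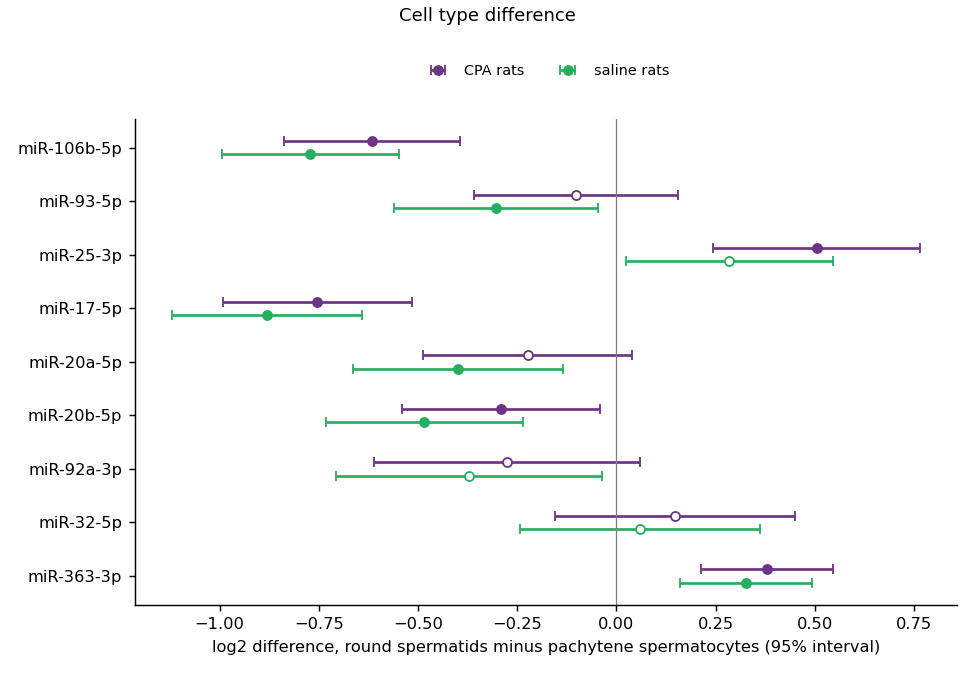
Log2 difference of round spermatids minus pachytene spermatocytes for the members above the floor and their seed relatives, in CPA and saline rats, with 95% intervals from limma; filled points passed an adjusted p of 0.05. miR-106b-5p and miR-17-5p lie furthest to the left of the miRNAs drawn, and miR-25-3p and miR-363-3p lie to the right of 0 at this scaling. On the labelling spike-ins miR-25-3p lay left of 0 in both treatments and miR-363-3p in saline rats, and with no scaling miR-25-3p did so in saline rats.

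Cyclophosphamide changed none of the members by the test. In round spermatids the log2 difference of CPA against saline was 0.06 ± 0.11 for miR-106b-5p (SE; 95% interval -0.16 to 0.29; limma adjusted p = 0.911). It was 0.14 ± 0.12 for miR-93-5p (SE; 95% interval -0.12 to 0.39; limma adjusted p = 0.848) and 0.10 ± 0.12 for miR-25-3p (SE; 95% interval -0.16 to 0.36; limma adjusted p = 0.854). The groups overlapped for each. In pachytene spermatocytes the difference was -0.09 ± 0.11 for miR-106b-5p (SE; 95% interval -0.31 to 0.13), -0.07 ± 0.12 for miR-93-5p (SE; 95% interval -0.32 to 0.19) and -0.12 ± 0.12 for miR-25-3p (SE; 95% interval -0.38 to 0.14), each with a limma adjusted p of 1. For miR-106b-5p it turned to 0.017 without the array of saline rat 25. At the scaling used here the intervals allow at most a 1.31-fold rise in round spermatids (miR-93-5p). In pachytene spermatocytes they allow a level no lower than 0.768 of saline (miR-25-3p). These bounds hold at that scaling only. Over the other settings the pachytene log2 difference of miR-25-3p itself reached -0.46 and the spermatid difference of miR-93-5p 0.31, neither called. miR-106b-3p differed by 0.001 in round spermatids and -0.02 in pachytene spermatocytes, values set by the floor.

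The count of members called was 0 in round spermatids and 0 in pachytene spermatocytes, where 0% of the 217 tested miRNAs were called by limma in each comparison. At an unadjusted p under 0.05, limma gave 5 of 217 miRNAs in round spermatids and 1 in pachytene spermatocytes, none of them a member. No tested miRNA was free of overlap between CPA and saline in round spermatids (0%), and 0.461% were in pachytene spermatocytes. The difference between the CPA effects, round spermatids minus pachytene spermatocytes, was 0.16 ± 0.15 for miR-106b-5p, 0.20 ± 0.17 for miR-93-5p and 0.22 ± 0.18 for miR-25-3p (SE), each with a limma adjusted p of 0.998, and 0% of tested miRNAs were called. At an unadjusted p under 0.05, 1 of 217 miRNAs passed in that comparison, again none of them a member. The cell type difference of a member in CPA rats minus that in saline rats is the same quantity, so the same test covers whether the cell type difference depended on treatment.

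**Figure D4:**
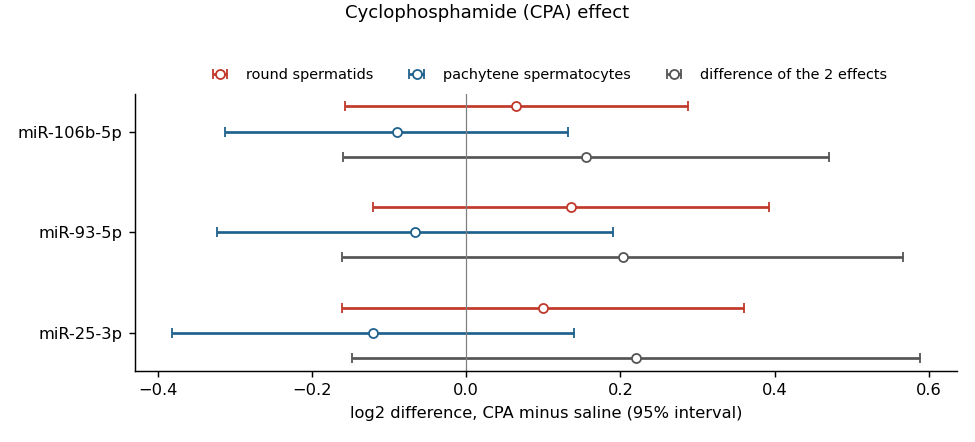
Log2 difference of CPA minus saline in round spermatids and in pachytene spermatocytes, and the difference of these effects, for the members above the floor, with 95% intervals from limma. Open points did not pass an adjusted p of 0.05, and every interval spans 0.

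By their brightest probes, the members above the floor shared some extreme arrays within the spermatid groups. In saline round spermatids rat 15 had the highest and rat 16 the lowest signal of miR-106b-5p, miR-93-5p and miR-25-3p alike. In CPA round spermatids rat 25 had the lowest of all of them. The dimmer probes did not all keep this. That of miR-106b-5p was highest in saline rat 25 at 52.8 and lowest in CPA rat 14 at 42.4. In saline spermatids the dimmer probe of miR-93-5p was lowest in rat 25 at 52.2, while that of miR-25-3p was lowest in rat 16 at 143. Saline rat 16 and CPA rat 25 were the spermatid arrays on slide 2, and the array of saline rat 16 had the lowest 75th percentile of the 20, 141 before scaling. In pachytene spermatocytes miR-93-5p and miR-25-3p, by their brightest probes, were lower on slide 2 than on slide 1, and miR-106b-5p was not. The slides still overlapped for miR-25-3p, with signals of 255 to 313 on slide 1 and 206 to 264 on slide 2. Slide 2 minus slide 1, with treatment in the model, gave -0.27 ± 0.05 for miR-93-5p and -0.31 ± 0.08 for miR-25-3p (SE; limma adjusted p = 0.0082 and 0.0169), and 0.03 ± 0.13 for miR-106b-5p (SE; limma adjusted p = 0.942). In that comparison 24.4% of the 217 tested miRNAs were called. In round spermatids 8.29% were called between slide 3 and slides 1 and 2, and no member was among them. As slides 1 and 2 are pooled there, that comparison cannot show whether slide 2 differed from the others. The brighter miR-25-3p probe had spermatid signals of 316 to 366 on slide 1, 239 to 289 on slide 2 and 285 to 346 on slide 3.

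Values within a slide bear on the cell type differences. For miR-106b-5p the round spermatid difference within slide 1 was -0.68 in CPA rats and -0.45 in saline rats, and within slide 2 it was -0.72 in CPA rats and -0.995 in saline rats. For miR-93-5p it was -0.26 in CPA rats and -0.15 in saline rats on slide 1, and -0.21 in CPA rats and -0.60 in saline rats on slide 2. For miR-25-3p it was 0.34 in CPA rats and 0.37 in saline rats on slide 1, and 0.46 in CPA rats and 0.05 in saline rats on slide 2. The direction of each of these members was the same on both slides, though a slide held as few as 1 spermatid array of a treatment. For CPA against saline, miR-106b-5p, miR-93-5p and miR-25-3p gave -0.08, -0.06 and -0.13 in round spermatids on slide 1, where the pooled differences were above 0. On slide 2 they gave 0.03, 0.25 and 0.27, and on slide 3 0.14, 0.18 and 0.16. In pachytene spermatocytes they gave 0.15, 0.05 and -0.10 on slide 1 and -0.25, -0.14 and -0.14 on slide 2, and none of these was called.

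For the 3 members above the floor, the dimmer probe gave the same direction between cell types as the brighter one. Its log2 difference of round spermatids against pachytene spermatocytes was -0.959 in CPA rats and -0.999 in saline rats for miR-106b-5p. It was -0.28 in CPA rats and -0.33 in saline rats for miR-93-5p, and 0.38 in CPA rats and 0.27 in saline rats for miR-25-3p. For miR-93-5p the probes disagreed on the slides. On pachytene arrays the brighter probe had a median signal of 148 on slide 2 and 182 on slide 1, whereas the dimmer probe had 74.4 on slide 2 and 63.3 on slide 1.

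**Figure D5:**
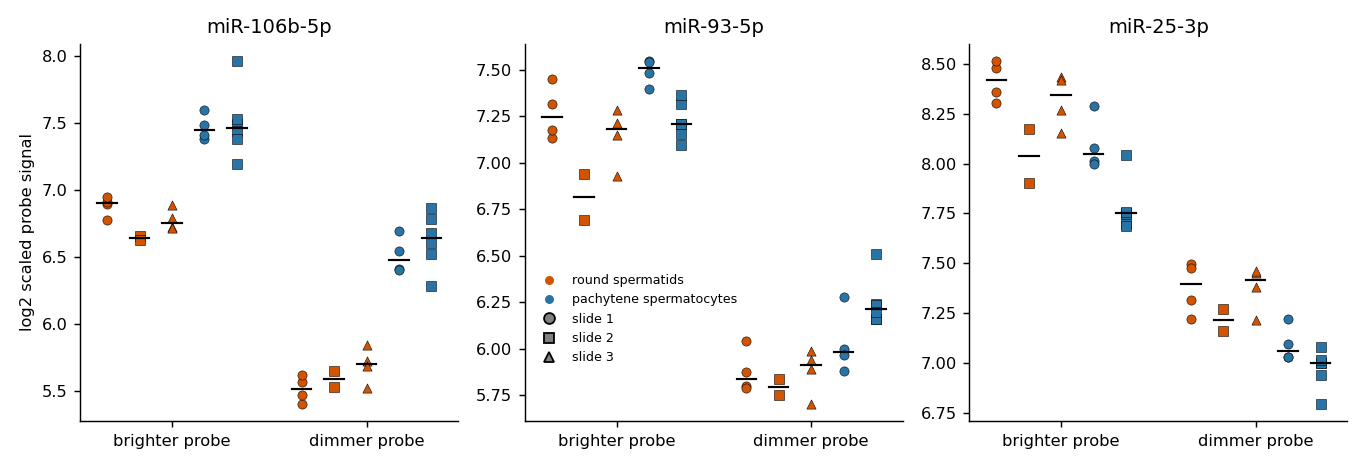
Log2 scaled signal of the brighter and the dimmer probe of each member above the floor, by cell type and slide; each point is an array and each line a median. Between pachytene slides the miR-93-5p probes move in opposite directions, while both miR-106b-5p probes keep spermatid below pachytene arrays.

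The labelled cell types were set beside marker miRNAs. All 3 germ cell markers (miR-34b-5p, miR-34c-5p and miR-449a-5p) were detected on every array, with summed signals of 22361 to 34763 in CPA and 15104 to 30444 in saline round spermatids, against 14999.5 to 23481 in CPA and 15425 to 23307 in saline pachytene spermatocytes. miR-34b-5p and miR-34c-5p had higher means in round spermatids. miR-449a-5p had log2 differences of -0.013 in CPA rats and -0.26 in saline rats, neither called. The sum of 3 spermatogonial markers (miR-221-3p, miR-222-3p and miR-21-5p) was 592 to 642 in CPA and 543 to 628 in saline round spermatids, against 613 to 808 in CPA and 698 to 786 in saline pachytene spermatocytes. miR-221-3p and miR-222-3p were called lower in round spermatids of both treatments, with log2 differences of -1.70 to -1.40. miR-221-3p thus moved with miR-106b-5p. For miR-21-5p the log2 difference was -0.20 in saline rats, called lower, and -0.09 in CPA rats, not called. miR-222-3p was detected on 1 of 5 CPA and 1 of 5 saline spermatid arrays. It was tested only through its detection in pachytene spermatocytes, where it was higher, so its call is no support for a difference. Of 7 endothelial, muscle and mesenchymal markers 5 were tested, and 4 were called higher in round spermatids of both treatments. The other one, miR-126a-3p, had log2 differences of -0.83 in CPA rats, called lower, and -0.73 in saline rats, not called (limma adjusted p = 0.0294 and 0.0583). The summed signal of that list was 1969 to 3771 in CPA and 2352 to 3575 in saline round spermatids, against 562 to 1019 in CPA and 713 to 1474 in saline pachytene spermatocytes. The sum of 5 blood markers was 159 to 222 in CPA and 169 to 228 in saline round spermatids, against 87.6 to 132 in CPA and 107 to 133 in saline pachytene spermatocytes. Of the 3 tested, miR-142-3p and miR-223-3p had higher means in round spermatids. The other, miR-150-5p, had log2 differences of -0.36 in CPA rats and -0.25 in saline rats, neither called. The red cell marker miR-451-5p was detected on 1 saline spermatid array and no other. The 4 Sertoli and gonadal markers summed to 291 to 581 in CPA and 261 to 601 in saline round spermatids, against 374 to 476 in CPA and 395 to 493 in saline pachytene spermatocytes. Most of that sum was miR-212-3p, which was not called. miR-202-3p was called lower in round spermatids, and thus moved with miR-106b-5p, with log2 differences of -1.55 in CPA rats and -1.77 in saline rats (limma adjusted p = 4.71e-07 and 1.30e-07). miR-132-3p was detected on 0 of 5 CPA and 1 of 5 saline pachytene arrays and lay at the floor on all of them. It was called higher, but it was tested only through its detection in round spermatids, so that call is no support for a difference. miR-202-5p was detected on no spermatid array and was not tested. The part of these other cells in the differences of the cluster was not tested.

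Likeness to the cluster was measured as the root mean square difference between the 4 group means of log2 signal, each miRNA first centred on its own mean, against the mean of the members, over 155 other miRNAs detected on all arrays. The nearest were miR-21-5p at 0.011, miR-30b-5p at 0.024, miR-883-3p at 0.029, miR-872-5p at 0.034 and miR-743b-5p at 0.043. These had small differences between groups, though miR-21-5p was called lower in round spermatids of saline rats, at -0.20 in log2. The mean was taken over all 4 members, which run in opposite directions and include miR-106b-3p near the floor, so its profile is flattened too. Taken member by member, a step chosen after the values were seen, the nearest were miR-471-3p (0.060), miR-463-3p (0.073) and miR-17-5p (0.075) for miR-106b-5p. For miR-93-5p they were miR-21-5p (0.043), miR-883-3p (0.043) and miR-743b-5p (0.045), and for miR-25-3p they were miR-301a-3p (0.043), miR-19b-3p (0.050) and miR-16-5p (0.051). The profiles share their arrays and scaling, so this likeness is a description.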

How the data were processed

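The authors deposited scanner files with linear spot intensity after background subtraction, with no scaling across arrays. Per the file headers and the submitters' processing notes, the software was Agilent Feature Extraction 11.5.1.1. Each lists 14255 spots, 13540 of them probes for 677 rat miRNAs. The array of CPA spermatid rat 14 has its processed signal rounded to 3 significant digits. The deposited value table (log2 values whose normalization is not given) names none of the members as the array does and was not used.

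Scaling divided the processed signal of an array by its 75th percentile, taken over the 2176 spots flagged well above background throughout the 20 arrays, and brought the arrays to a common level. They were held at a floor of 12.17, the median over arrays of the lowest scaled signal well above background, and taken to log2. Control spots and 379 to 635 outlier spots per array were left out, and no probe was saturated. Spots of a probe were averaged, and the brightest probe stood for its miRNA. The model was fitted with limma 3.58.1 under R 4.3.3 (16 residual degrees of freedom) and tested on simulated data, and figures were drawn with Python 3.11.15. The number of arrays limits the precision. Correlations between replicates of a group lay between 0.958 and 0.996.

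The text names the members, the other arms, the seed relatives, the 5 nearest miRNAs and fixed cell type markers. The members and lists were chosen with earlier results of these data known. Alternatives covered scaling, background correction, probe and miRNA summaries, filters, slide, rat number and left-out arrays, and 3 were added after seeing the data (unrounded signal, lower floor, labelling spike-ins). The normexp alternative used the median spot signal, where a mean signal had been planned, as the files have no such column.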

Additional observations from a re-analysis of the deposited data

Results flagged for a closer look

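Of 12 groups of 5 arrays screened, 3 members in 4 groups each, 1 held an array far from the others, and chance flags about 1 in 20 groups. It was miR-106b-5p in saline pachytene spermatocytes, where rat 25 had 7.96 on the log2 scale and the gap to the next array took up 0.744 of the range of the group, above Dixon's critical value of 0.71. Without that array the CPA difference of miR-106b-5p in pachytene spermatocytes was 0.017, against -0.090 with it, and neither was called. miR-106b-3p was not screened, since most of its values lie at the floor, where they have no order.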

How the results depend on the processing

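Each difference was refitted under 15 to 18 other settings and with each array left out in turn. The call of miR-106b-5p as lower in round spermatids was made in all 10 fits with an array left out in each treatment, and failed with normexp (-0.37) and within slide 1 (-0.45) in saline rats and within slide 2 (-0.72) in CPA rats. miR-25-3p was turned to -0.21 in CPA rats by the labelling spike-ins, and in saline rats to -0.19 by no scaling and -0.94 by the spike-ins, and its CPA call was lost with the 75th percentile over all spots (0.29), with no scaling (0.10) and within slide 1 (0.34). In saline rats it was called with the mean over probes (0.28) and with array weights (0.42). The saline call of miR-93-5p was lost with normexp (-0.056), array weights (-0.19), within slide 1 (-0.15), the lower floor, no filter and a fit of the saline groups alone. The saline value of miR-106b-3p was called in 4 of 16 settings, with quantile normalization (-0.18), total gene signal (-0.40), the lower floor (-0.49) and the spike-ins (-0.54), and turned to 0.57 with normexp. Normexp put the median of all tested miRNAs between -0.49 and 0.44 over the comparisons, and relative to its 0.44 in saline rats miR-106b-5p stood at -0.81. The cause of these changes was not tested.

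The number of members called in CPA rats was 1 with the 75th percentile over all spots, with no scaling and within each slide, against 2. In saline rats it was 0 with normexp and within slide 1, 1 with no filter and with the saline groups alone, 4 with the spike-ins, and 1 to 2 with an array left out. All miRNAs called between cell types numbered 72 with no scaling, 38 with normexp and 73 within slide 1 in CPA rats, and 29 with normexp, 161 with the spike-ins and 56 within slide 1 in saline rats. Within slide 2, which has 1 array of each spermatid group, 27 were called for CPA in round spermatids and 20 for the difference of effects, no member among them.

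No CPA effect on a member was called under any setting run, but signs turned. In pachytene spermatocytes miR-106b-3p gave 0.40 with normexp and 0.085 within slide 1, miR-106b-5p 0.15 within slide 1, and miR-93-5p 0.016 with normexp and 0.047 within slide 1. In round spermatids miR-106b-3p gave -0.0016 with quantile normalization, -0.24 with normexp and -0.0032 with slide as a block. There miR-106b-5p gave -0.031 with no scaling, -0.011 with quantile normalization, -0.058 with normexp and -0.082 within slide 1, and within slide 1 miR-25-3p gave -0.13 and miR-93-5p -0.061. The difference of effects was -0.64 with normexp and -0.083 within slide 1 for miR-106b-3p, -0.054 and -0.23 for miR-106b-5p, -0.015 and -0.11 for miR-93-5p, and -0.036 within slide 1 for miR-25-3p. With an array left out, the pachytene CPA difference ran between -0.073 and 0.030 for miR-106b-3p and between -0.13 and 0.017 for miR-106b-5p, the difference of effects of miR-106b-3p between -0.028 and 0.075, and its CPA cell type difference between -0.063 and 0.0015.

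With the rat number within a treatment as a random replicate block, 2 members were called in CPA rats and 2 in saline rats, and miR-106b-5p had -0.61 in CPA rats and -0.78 in saline rats. Of 4 pairs of equal number, deviations correlated at 0.13, 0.07, 0.18 and -0.30 over 217 miRNAs, and 2 of them were the best match among the spermatid arrays of their treatment. With 4 pairs this could not settle whether equal numbers stand for single rats. The main fit did not use the numbers as pairs, since the labels do not state it, and the block changed no member's call. The comparison with the deposited values was not run, since that table lists the cluster under older names without an arm. miR-106b-3p is limited by its signal, at or near the floor on every array.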
